A study of Homo sapiens with 6 samples.

Results

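STRIPAK, the striatin-interacting phosphatase and kinase complex, was followed at the mRNA level in MDA-MB-231 breast cancer cells with and without RBCK1 depletion. Its members were given by name, as 9 genes: the striatins STRN, STRN3 and STRN4, the adaptors SLMAP and SIKE1, the Mob protein gene MOB4, the phosphatase genes PPP2CA and PPP2R1A, and PDCD10. All 9 were found by gene number among the 17149 genes of the files, and all 9 had at least 1 FPKM (fragments per kilobase of transcript, scaled to library size) in every library, so that none was lost to the filter that kept 11135 genes for testing. The rule names the genes and sets no threshold on a measured value.

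STRIPAK is a form of protein phosphatase PP2A in which a striatin takes the place of the usual regulatory B subunit and holds the catalytic and scaffold subunits next to kinases. The adaptor SLMAP binds the phosphorylated Hippo kinases MST1 and MST2 (genes STK4 and STK3) and brings them to the phosphatase, which switches them off. With these kinases off, LATS kinases are less active and the coactivator YAP can enter the nucleus, which is why the complex is known as a brake on Hippo signalling.

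MDA-MB-231 is an established human cell line from a triple negative breast tumour, with a mesenchymal character. Cells were transfected with siControl, a control siRNA, or with siRBCK1, siRNA against RBCK1, which encodes a ubiquitin ligase subunit also known as HOIL-1. The study asked how RBCK1 bears on the Hippo/YAP axis, and total RNA was sequenced in 3 libraries per group, with no other difference in treatment between the groups. Which siRBCK1 sequence was used for these libraries is not named in the sources used here, and no source says whether the 3 libraries of a group are separate cultures. The p-values therefore reflect the variation among these libraries, which may be technical.

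The targeted gene was lower as labelled. RBCK1 stood at 64.96, 63.62 and 73.37 FPKM in the siControl libraries and at 41.53, 46.15 and 45.61 FPKM in the siRBCK1 libraries, which is 66.0% of the siControl mean (log2 fold change -0.59, SE 0.07, limma adjusted p = 6.55e-05). The groups did not overlap, and the depletion at the mRNA level was partial. The libraries were alike within a group, with correlations of log2 values of 0.9949 or more against 0.9859 or less between groups. Sequencing depth is unknown, because FPKM does not keep it. The 5 markers chosen for the line (VIM, CD44, AXL, CAV1 and KRT18) were all detected, with a summed level of 3184 to 3309 FPKM in siControl and 3139 to 3202 FPKM in siRBCK1. Most of this sum was VIM, and the sum hides changes in single markers. CD44 fell to 84.2% of siControl (limma adjusted p = 0.00553) and CAV1 rose to 121% (limma adjusted p = 0.000945). VIM, AXL and KRT18 did not pass the test. Of 5 epithelial and receptor markers chosen as low in the line, CDH1, ESR1 and PGR were under 1 FPKM in every library, and EPCAM and ERBB2 were not. The list summed to 18.6 to 21.75 FPKM in siControl and 26.25 to 27.25 FPKM in siRBCK1, and ERBB2 rose (log2 fold change 0.46, limma adjusted p = 0.000553). Its part in the results was not tested. Of the 4 measured markers of blood and vessel cells, 3 were under 1 FPKM in every library, and the list summed to 3.34 to 3.91 FPKM in siControl and 2.46 to 2.69 FPKM in siRBCK1. The remaining marker, CD14, fell from 3.23 ± 0.180 to 2.05 ± 0.197 FPKM (log2 fold change -0.47, limma adjusted p = 0.000959).

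With the FPKM values as deposited, most STRIPAK subunit mRNAs did not pass the test, while striatins moved in opposite directions. STRN4, the most abundant striatin mRNA, fell to 67.7% of siControl, while STRN rose 1.65-fold and SLMAP rose 1.33-fold. PPP2CA, PPP2R1A, PDCD10, MOB4, STRN3 and SIKE1 did not pass the test. Of the 9 members, 3 passed at an adjusted p under 0.05, 2 higher and 1 lower, where 53.9% of all tested genes passed, 36.8% higher and 17.1% lower. With an unadjusted p of 0.05 and a fold change of 1.5 on the scale of the test, 0 members were called, where 5.88% of tested genes were called higher and 2.63% lower. The groups did not overlap for 4 members, 2 higher (STRN and SLMAP) and 2 lower (STRN4 and SIKE1), and they did not overlap for 62.8% of all tested genes, 42.7% higher and 20.1% lower. After trimmed-mean scaling of the libraries, 2 members were higher and 3 lower, where 24.7% of tested genes were higher and 25.5% lower. SIKE1 and PDCD10 were past the test with that scaling. These shares are near or under the background, so the number of changed subunits is not a result about the complex.

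**Figure D1:**
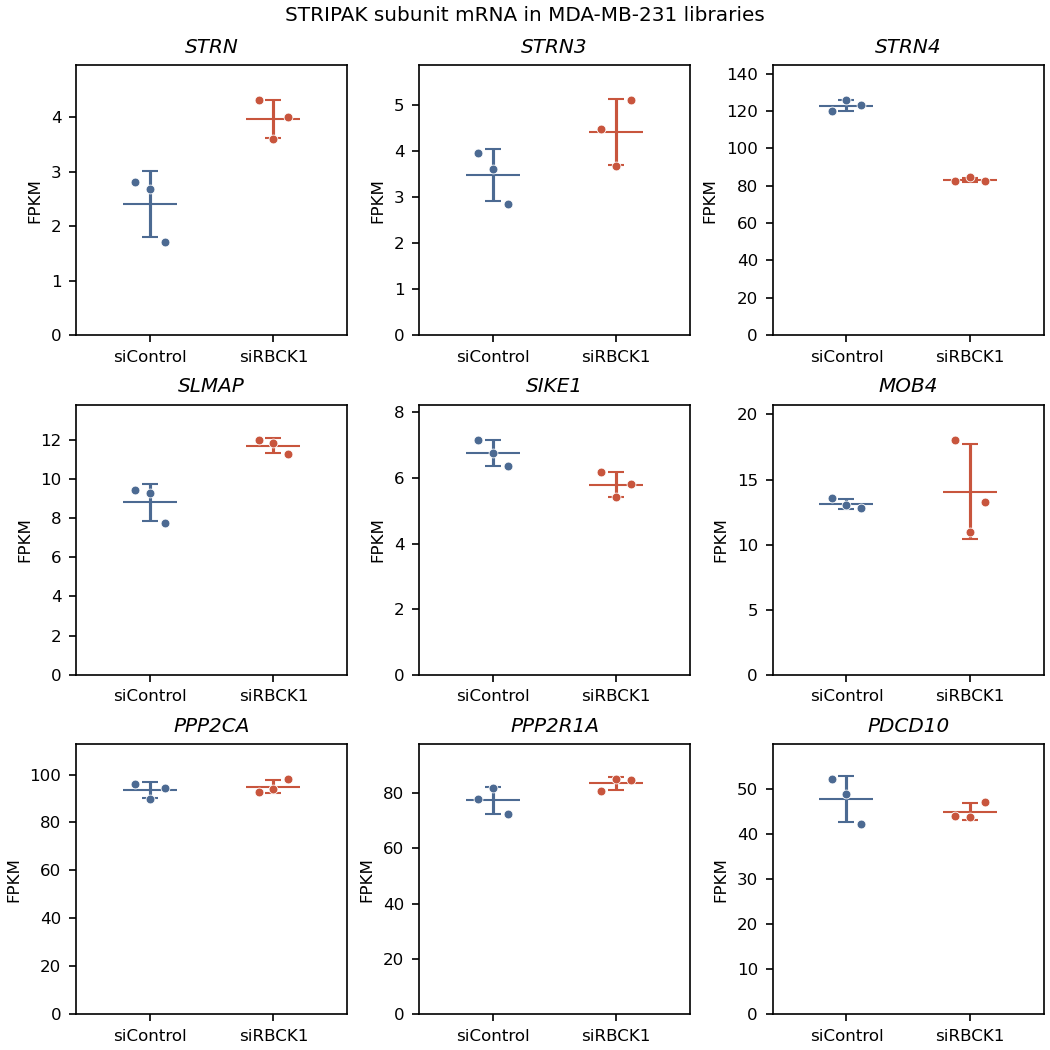
Level of each STRIPAK subunit mRNA in FPKM (vertical axis, from 0) in the 3 siControl (blue) and 3 siRBCK1 (red) libraries. Points are libraries, the wide line is the group mean and the bar its SD. STRN4 lies at 119.92 to 125.70 in siControl and at 82.36 to 84.58 in siRBCK1, while STRN and SLMAP lie higher in every siRBCK1 library than in any siControl library.

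Fold changes here are differences of log2(FPKM + 1) means, siRBCK1 minus siControl, and so understate changes at low levels. The median of this difference was 0.07 over the 9 members and 0.11 over all 11135 tested genes. Trimmed-mean scaling of the libraries brought the median of all genes to 0.01, and with it 24.7% of the tested genes were higher and 25.5% were lower. A member with a difference near 0.11 therefore stood where the typical gene stood.

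The striatins are scaffold proteins whose coiled coil and WD repeats hold the phosphatase and its partners together. STRN4 (chromosome 19, 46719511 to 46746450, minus strand, GRCh38) encodes zinedin. It measured 119.92, 125.70 and 123.26 FPKM in siControl and 82.36, 84.58 and 82.66 FPKM in siRBCK1. The 3 siRBCK1 libraries were close to each other and far under the lowest siControl library. The log2 fold change was -0.56 (95% interval -0.66 to -0.45, SE 0.05), with a limma adjusted p of 9.07e-06. In bulk RNA, a lower level in each cell and fewer cells with the transcript cannot be told apart.

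STRN (chromosome 2, 36837698 to 36966536, minus strand) encodes striatin itself, the founding member of the family. It measured 2.82, 2.68 and 1.72 FPKM in siControl and 4.31, 3.60 and 4.0 FPKM in siRBCK1. The groups did not overlap, and siControl replicate 3 was the lowest of the 6 libraries. On the log2 scale it was higher by 0.56 (95% interval 0.28 to 0.84, SE 0.13), with a limma adjusted p of 0.00373, and it was 0.40 (adjusted p = 0.00264) without siControl replicate 3.

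STRN3 (chromosome 14, 30893804 to 31026379, minus strand) encodes SG2NA. It measured 3.94, 3.61 and 2.84 FPKM in siControl and 4.48, 3.67 and 5.09 FPKM in siRBCK1. The groups overlapped, since siRBCK1 replicate 2 lay under siControl replicate 1. A log2 fold change of 0.28 (95% interval 0.01 to 0.54) missed the test (limma adjusted p = 0.0705). It was past the test without siControl replicate 1 (0.36, adjusted p = 0.0482) or without siRBCK1 replicate 2 (0.38, adjusted p = 0.0295).

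Because striatins are paralogs, reads could be shared between their transcripts where the sequences are identical. The runs below are the longest that each pair has in common, taken from the longest GENCODE 29 transcript of each gene on GRCh38. They are shown because STRN and STRN4 moved in opposite directions. Reads of identical sequence cannot be assigned to 1 gene, but any stretch longer than these runs differs between the transcripts of a pair. The part of shared reads in these values was not tested. Capitals mark identical bases, 5′ to 3′, and all 3 runs are in coding sequence.
STRN and STRN3, 18 bases: TGTTCAGCAGATGGCACT
STRN and STRN4, 17 bases: CCGGGGATCCTGCACTT
STRN3 and STRN4, 17 bases: ATCCAGCACGAGTGGGC
The transcripts compared are 8168, 3970 and 3628 nucleotides long for STRN, STRN3 and STRN4.

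The make-up of the striatin pool differed between the groups. STRN4 was 94.7%, 95.2% and 96.4% of the summed striatin FPKM in siControl and 90.4%, 92.1% and 90.1% in siRBCK1. This is 95.4% ± 0.903 against 90.8% ± 1.08 (SD, n = 3 each), a difference of -4.60 percentage points with no overlap. The share of STRN went from 1.87% ± 0.462 to 4.34% ± 0.405, and that of STRN3 from 2.69% ± 0.446 to 4.82% ± 0.780, again with no overlap. A share within a library does not move with the scaling of that library. It can move with a trend in transcript length or in G and C content, and the shares were not computed with such a trend removed. Each of these shares gave an exact permutation p of 0.10 (two-sided), the smallest that 3 libraries against 3 allow, and 0.15 after adjustment over the 6 shares compared, so the design cannot place them past a threshold.

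**Figure D2:**
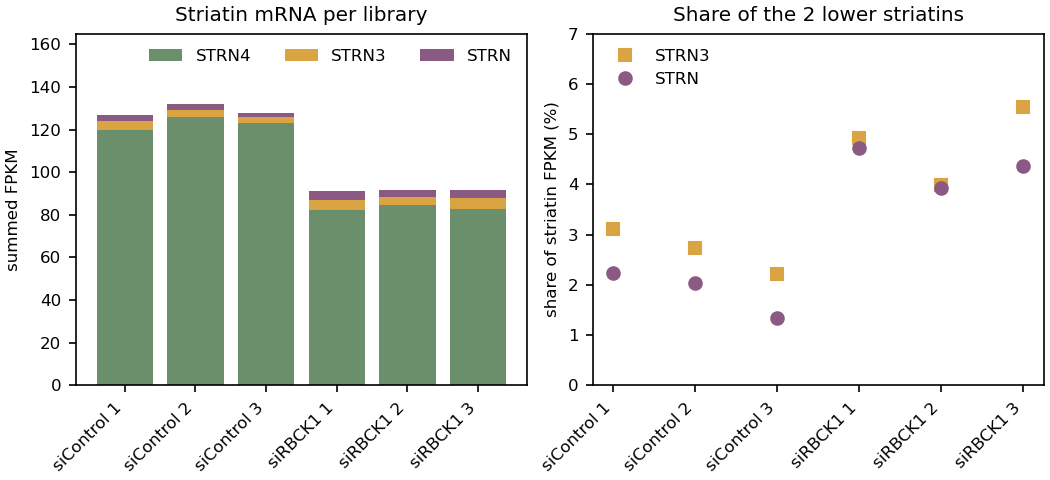
Left, summed FPKM of the striatin mRNAs in each library, stacked by gene (bars start at 0). Right, the share of STRN (circles) and STRN3 (squares) in that sum, in percent. The siControl bars reach 126.68 to 131.99 and the siRBCK1 bars 91.15 to 91.85, nearly all of it STRN4, and both lower striatins take larger shares in each siRBCK1 library.

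Summed over the family, striatin mRNA was lower in siRBCK1. The 3 striatins together measured 126.68, 131.99 and 127.82 FPKM in siControl and 91.15, 91.85 and 91.75 FPKM in siRBCK1. The sum stood at 71.1% of siControl, with no overlap and an exact permutation p of 0.10, the smallest possible. STRN and STRN3 together were 5.87 ± 1.16 FPKM in siControl and 8.38 ± 0.976 FPKM in siRBCK1 (SD, n = 3 each). The ratio of STRN4 to STRN was 53.7 ± 15.7 in siControl and 21.1 ± 2.22 in siRBCK1. The ratio of STRN4 to PPP2R1A, the phosphatase scaffold gene, was 1.59 ± 0.0963 in siControl and 0.997 ± 0.0213 in siRBCK1. Both ratios were lower in every siRBCK1 library than in any siControl library. For STRN4 to STRN this follows from the values of the single genes, which did not overlap between the groups. The sum and the ratio of STRN4 to PPP2R1A carry the fall of STRN4, so none of these adds support of its own.

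Some striatin genes overlap other genes in the annotation, measured here over whole gene spans with introns. Overlap of exons was not examined. An antisense RNA, AC008635.1, overlaps STRN4 by 4098 nucleotides. STRN3 likewise overlaps AP4S1 by 1296 and COCH by 1267 nucleotides on the opposite strand. AP4S1 did not pass the test (log2 fold change -0.10, limma adjusted p = 0.338). Whether the authors counted reads by strand is not given in the sources used here. How reads from such overlaps were assigned is therefore unknown, and their part in these values was not tested.

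SLMAP and SIKE1 form the arm that brings the kinases to the complex. SLMAP (chromosome 3, 57756309 to 57930013, plus strand) encodes a membrane-anchored protein with a forkhead-associated domain, which recognises phosphorylated MST kinases. It measured 9.41, 9.26 and 7.73 FPKM in siControl and 11.99, 11.85 and 11.26 FPKM in siRBCK1. Every siRBCK1 library was higher than every siControl library. SLMAP was higher by 0.38 on the log2 scale (95% interval 0.20 to 0.56, SE 0.08, limma adjusted p = 0.00306). The difference was smallest after quantile normalization, at 0.23 (adjusted p = 0.0133).

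SIKE1 (chromosome 1, 114769479 to 114780685, minus strand) encodes the coiled-coil partner that links SLMAP to the striatins, first named as a suppressor of the kinase IKK-epsilon. It measured 7.16, 6.77 and 6.37 FPKM in siControl and 6.18, 5.41 and 5.81 FPKM in siRBCK1. The groups did not overlap, though the lowest siControl and the highest siRBCK1 library were close. Its log2 fold change of -0.19 (95% interval -0.37 to -0.02) missed the test with a limma adjusted p of 0.0611. It was past the test in 5 of the 14 alternatives, among them trimmed-mean scaling (-0.29, adjusted p = 0.00576), quantile normalization (-0.35, adjusted p = 0.00173) and leaving out siControl replicate 3 (-0.23, adjusted p = 0.024).

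The balance between these adaptors differed, since SLMAP was 1.30 ± 0.0783 times SIKE1 in siControl and 2.02 ± 0.145 times in siRBCK1 (SD, n = 3 each). The ratio did not overlap between the groups (exact permutation p = 0.10, the smallest possible). This follows from SLMAP being higher and SIKE1 lower in every siRBCK1 library, so the ratio adds no support of its own. FGFR1OP2, the paralog of SIKE1, measured 9.35 ± 0.497 FPKM in siControl and 8.39 ± 0.950 FPKM in siRBCK1 (log2 fold change -0.14, limma adjusted p = 0.186). SIKE1 made up 42.0% ± 1.06 of the pair in siControl and 41.0% ± 2.98 in siRBCK1, with overlap (exact permutation p = 0.6). The longest exact stretch common to these paralogs is 12 nucleotides.

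Hippo output acts through TEAD factors, whose core motif is GGAATG, so the promoters of the members were searched for these letters on both strands. Windows of 250 bases before to 50 bases after each annotated start were taken from RefSeq on GRCh38.p14, and 8 members matched with 15 windows. No window was matched for STRN4, so its promoter was not searched. The motif was in 2 of these 15 windows, both of SLMAP, against 14.0% of all 35116 windows and 11.4% of the windows of tested genes. The SLMAP windows with a match and the window of STRN, the other member that rose, are shown because these are the members whose mRNA was higher. Capitals mark the motif, read as CATTCC where it lies on the other strand, and the rest is in lower case.
SLMAP, chr3:57756059-57756358, plus strand: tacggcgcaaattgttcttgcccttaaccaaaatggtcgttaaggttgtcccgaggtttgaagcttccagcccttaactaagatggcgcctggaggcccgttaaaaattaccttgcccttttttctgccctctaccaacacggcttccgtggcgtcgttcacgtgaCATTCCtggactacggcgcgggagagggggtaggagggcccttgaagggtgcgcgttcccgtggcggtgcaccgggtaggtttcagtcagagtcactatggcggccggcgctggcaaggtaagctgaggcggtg
SLMAP, inner start, chr3:57889752-57890051, plus strand: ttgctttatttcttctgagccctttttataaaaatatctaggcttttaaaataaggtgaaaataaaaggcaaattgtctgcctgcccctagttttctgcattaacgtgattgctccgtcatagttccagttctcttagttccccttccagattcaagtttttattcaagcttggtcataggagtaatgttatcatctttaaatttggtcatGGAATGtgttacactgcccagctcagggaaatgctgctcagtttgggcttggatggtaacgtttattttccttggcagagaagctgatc
STRN, chr2:36966487-36966786, minus strand: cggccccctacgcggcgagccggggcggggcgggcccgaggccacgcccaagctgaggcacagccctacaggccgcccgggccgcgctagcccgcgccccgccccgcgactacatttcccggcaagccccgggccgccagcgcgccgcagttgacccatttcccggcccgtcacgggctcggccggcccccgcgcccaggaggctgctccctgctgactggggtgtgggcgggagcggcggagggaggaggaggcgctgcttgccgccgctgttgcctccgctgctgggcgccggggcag
The match lies 84 bases before the first SLMAP start and 39 bases before the inner start shown. A further SLMAP window, chr3:57757006-57757305, holds no match and is not shown. The STRN window holds no match and is 79.3% G and C. A match is a description of letters and says nothing of binding.

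MOB4, also called phocein, encodes a Mob family protein bound by striatins. It lies on chromosome 2 (197515554 to 197553699, plus strand). It measured 13.55, 13.01 and 12.78 FPKM in siControl and 18.04, 10.93 and 13.26 FPKM in siRBCK1. The siControl libraries were close together, while siRBCK1 held both the highest and the lowest of the 6. Its log2 fold change was 0.07 (95% interval -0.23 to 0.37, limma adjusted p = 0.686), and it was -0.11 without siRBCK1 replicate 1.

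The spread of MOB4 in siRBCK1 went with that of a readthrough gene. The gene span of HSPE1-MOB4, introns included, shares 35156 nucleotides with that of MOB4 on the same strand. Its transcripts run from the chaperonin gene HSPE1 into MOB4. HSPE1-MOB4 measured 5.53, 4.88 and 5.41 FPKM in siControl and 2.03, 9.04 and 6.72 FPKM in siRBCK1. It was lowest where MOB4 was highest and highest where MOB4 was lowest. The sum of both, an analysis chosen after these values were seen, was 19.08, 17.89 and 18.19 FPKM in siControl and 20.07, 19.97 and 19.98 FPKM in siRBCK1. The SD of the siRBCK1 libraries was 3.62 FPKM for MOB4 alone and 0.0551 FPKM for the sum. On the log2 scale the sum was 0.12 higher in siRBCK1 (limma adjusted p = 0.112). Reads may be split between these genes, which was not tested, so the values of MOB4 alone are uncertain. HSPD1, a chaperonin gene whose span overlaps that of MOB4 by 1167 nucleotides on the opposite strand, rose from 152 ± 16.5 to 217 ± 4.89 FPKM (log2 fold change 0.52, limma adjusted p = 0.000226).

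**Figure D3:**
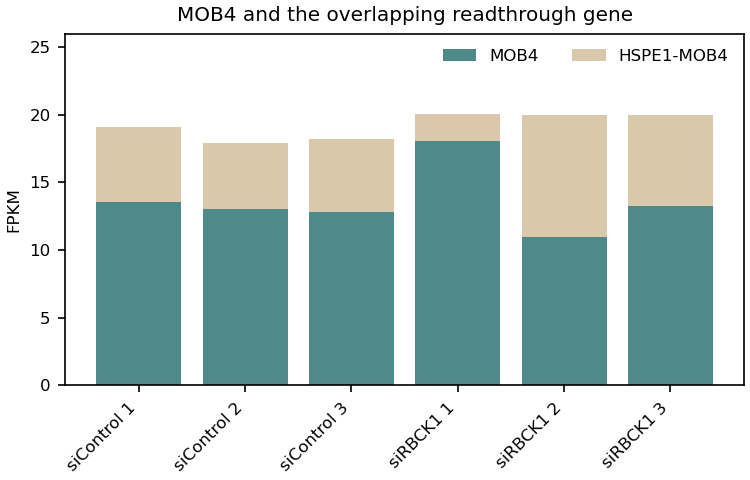
FPKM of MOB4 and of the readthrough gene HSPE1-MOB4 in each of the 6 libraries, stacked (bars start at 0). The split between the genes differs among the siRBCK1 libraries, with MOB4 at 18.04, 10.93 and 13.26, while the bar heights stay between 19.97 and 20.07 in siRBCK1 and between 17.89 and 19.08 in siControl.

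Neither member of the phosphatase core passed the test. PPP2CA (chromosome 5, 134194332 to 134226073, minus strand) encodes the alpha form of the catalytic subunit. It measured 96.27, 89.76 and 94.40 FPKM in siControl and 92.82, 93.93 and 97.96 FPKM in siRBCK1. The groups overlapped almost fully. The log2 fold change was 0.02 (95% interval -0.09 to 0.13, limma adjusted p = 0.734), and it turned to -0.10 (adjusted p = 0.197) after trimmed-mean scaling.

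PPP2R1A (chromosome 19, 52190052 to 52229518, plus strand) encodes the alpha form of the scaffold subunit on which the catalytic subunit and a striatin meet. It measured 77.83, 81.96 and 72.34 FPKM in siControl and 80.84, 84.88 and 84.67 FPKM in siRBCK1. The groups overlapped through siControl replicate 2. The log2 fold change of 0.11 (95% interval -0.02 to 0.24, limma adjusted p = 0.128) was the same as the median of all tested genes. It was 0.15 (adjusted p = 0.0457) without siControl replicate 2 and -0.01 (adjusted p = 0.918) after trimmed-mean scaling.

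The paralogs of the core subunits did not pass the test either. PPP2CB, the beta form of the catalytic subunit, was 36.3 ± 0.883 FPKM in siControl and 34.1 ± 1.55 FPKM in siRBCK1 (log2 fold change -0.09, limma adjusted p = 0.191). PPP2CA was 72.0% ± 0.406 of the catalytic pair in siControl and 73.6% ± 0.621 in siRBCK1, without overlap (exact permutation p = 0.10, adjusted 0.15). The difference was 1.59 percentage points, and the summed catalytic mRNA in siRBCK1 was 99.4% of siControl (exact permutation p = 1). PPP2R1B, the beta form of the scaffold, was 15.4 ± 0.878 FPKM in siControl and 14.8 ± 0.813 FPKM in siRBCK1 (log2 fold change -0.06, limma adjusted p = 0.494). PPP2R1A was 83.4% ± 1.25 of the scaffold pair in siControl and 85.0% ± 0.822 in siRBCK1, with overlap (exact permutation p = 0.3). The longest exact stretch is 26 nucleotides between PPP2CA and PPP2CB and 25 nucleotides between PPP2R1A and PPP2R1B. PPP2CA also shares 31738 nucleotides of its span with the gene model AC104109.3 on the same strand, and PPP2R1A shares 7309 nucleotides of its span with the antisense RNA AC010320.2.

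PDCD10 (chromosome 3, 167683298 to 167734892, minus strand), also known as CCM3, encodes the adaptor that ties the GCKIII kinases to the striatins. It measured 52.05, 48.82 and 42.14 FPKM in siControl and 43.91, 43.79 and 47.13 FPKM in siRBCK1. The lowest of the 6 libraries was siControl replicate 3, and the groups overlapped. PDCD10 differed by -0.08 on the log2 scale (95% interval -0.24 to 0.09, limma adjusted p = 0.393). It was past the test without siControl replicate 3 (-0.16, adjusted p = 0.029) and after trimmed-mean scaling (-0.19, adjusted p = 0.034).

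The partners of PDCD10 were higher, each by its own test. All 5 listed genes of this kind, the GCKIII kinases STK24, STK25 and STK26 and the cerebral cavernous malformation genes KRIT1 and CCM2, passed the test, where 36.8% of all tested genes were higher. Their median log2 fold change was 0.42, beside 0.11 over all tested genes, and 3 of the 5 passed after trimmed-mean scaling. STK25, a kinase of the Golgi that also acts in STRIPAK, measured 30.92, 32.25 and 26.24 FPKM in siControl and 47.67, 47.79 and 44.29 FPKM in siRBCK1. No siControl library came near the siRBCK1 range, and the log2 fold change was 0.63 (SE 0.08, limma adjusted p = 8.9e-05). KRIT1, whose product CCM1 binds CCM2, rose from 3.13 ± 0.454 to 4.91 ± 0.390 FPKM (SD, n = 3 each; log2 fold change 0.52, limma adjusted p = 0.00138). STK26 rose from 4.07 ± 0.497 to 5.79 ± 0.485 FPKM (log2 fold change 0.42, limma adjusted p = 0.00358). CCM2 and STK24 rose less, with log2 fold changes of 0.22 and 0.18.

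Other subunits of the complex had small differences. Of 7 listed subunits and paralogs, 5 were tested, of which 1 rose, 0 fell and 4 missed the test (median log2 fold change -0.06). The gene that rose was STRIP2, which encodes a striatin-interacting scaffold protein, with 4.77 ± 0.523 FPKM in siControl and 5.96 ± 0.204 FPKM in siRBCK1 (log2 fold change 0.27, limma adjusted p = 0.0203). That call was not stable, since 0 of the list were higher after trimmed-mean scaling or quantile normalization, or without any 1 of the 3 siRBCK1 replicates, and 2 were without siControl replicate 1. In the other direction, 1 of the list was lower after quantile normalization and 2 were after trimmed-mean scaling.

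The Hippo kinases and their partners were followed as a list of 8 genes. All 8 were tested, of which 5 rose, 1 fell and 2 missed the test (median log2 fold change 0.19), where 36.8% of all tested genes were higher and 17.1% were lower. STK3, which encodes MST2, measured 7.27, 7.34 and 7.11 FPKM in siControl and 3.87, 3.34 and 3.81 FPKM in siRBCK1. All 3 siRBCK1 values were far under the siControl values (log2 fold change -0.82, SE 0.08, limma adjusted p = 2.03e-05). STK4, which encodes MST1, was 9.72 ± 1.29 FPKM in siControl and 8.74 ± 0.414 FPKM in siRBCK1 and did not pass (limma adjusted p = 0.246). LATS2, a kinase that phosphorylates YAP, rose from 3.64 ± 0.370 to 5.26 ± 0.256 FPKM (log2 fold change 0.43, limma adjusted p = 0.00181). At low levels, LATS1 rose from 1.47 ± 0.243 to 2.11 ± 0.159 FPKM (log2 fold change 0.34, limma adjusted p = 0.0123). MOB1B rose from 2.62 ± 0.335 to 3.34 ± 0.190 FPKM (log2 fold change 0.26, limma adjusted p = 0.0296). The counts of this list depended on the setting, with between 1 and 3 genes higher in most alternatives. Leaving out siControl replicate 3, siRBCK1 replicate 1 or siRBCK1 replicate 3 left 2 higher, and leaving out siControl replicate 2 or siRBCK1 replicate 2 left 3. The count of lower genes was 2 in place of 1 without siControl replicate 3, and also with quantile normalization, trimmed-mean scaling or the length and GC trend removed.

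Striatins share the phosphatase core with the other regulatory B subunits, which direct PP2A to other substrates. Of 12 such genes, 10 were tested, of which 3 rose, 1 fell and 6 missed the test (median log2 fold change 0.10), beside 36.8% higher and 17.1% lower among all tested genes. PPP2R2A, the B55 alpha subunit, rose from 18.5 ± 0.452 to 25.9 ± 0.460 FPKM (SD, n = 3 each; log2 fold change 0.46, limma adjusted p = 9.3e-05). The B56 subunit genes PPP2R5A and PPP2R5D rose with log2 fold changes of 0.32 and 0.27. PPP2R5B, another B56 subunit gene, fell from 29.4 ± 0.806 to 22.9 ± 0.939 FPKM (log2 fold change -0.35, limma adjusted p = 0.000646). The list had 2 lower genes in place of 1 without siControl replicate 2. It also had 2 with quantile normalization, trimmed-mean scaling or the length and GC trend removed. Higher genes numbered 2 in place of 3 with trimmed-mean scaling and 4 with the trend removed.

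Among 10 tested genes for assembly factors, modifiers and inhibitors of PP2A, 3 rose, 1 fell and 6 missed the test (median log2 fold change 0.08), against the same background. The largest difference was in SET, an inhibitor of PP2A, with 144.17, 142.44 and 126.45 FPKM in siControl and 66.42, 63.40 and 68.35 FPKM in siRBCK1. The groups were far apart (log2 fold change -1.05, SE 0.06, limma adjusted p = 6.67e-07). SET has processed pseudogene copies with which reads may be shared, and their part in these values was not tested. ENSA, which blocks the B55 form of PP2A when phosphorylated, measured 69.07, 67.69 and 75.41 FPKM in siControl and 111.21, 111.46 and 112.94 FPKM in siRBCK1 (log2 fold change 0.66, limma adjusted p = 7.33e-06). CIP2A, an inhibitor of PP2A in cancer cells, rose from 9.52 ± 1.14 to 12.9 ± 1.61 FPKM (log2 fold change 0.40, limma adjusted p = 0.00731). TIPRL, which binds PP2A-type catalytic subunits, rose from 24.2 ± 1.82 to 31.8 ± 1.75 FPKM (log2 fold change 0.38, limma adjusted p = 0.00107). Over all 5 lists around the complex, 17 of 38 tested genes rose, 3 fell and 18 missed the test, while 53.9% of all tested genes passed, 36.8% higher and 17.1% lower. The share that passed is near this background and is not a result about the lists.

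**Figure D4:**
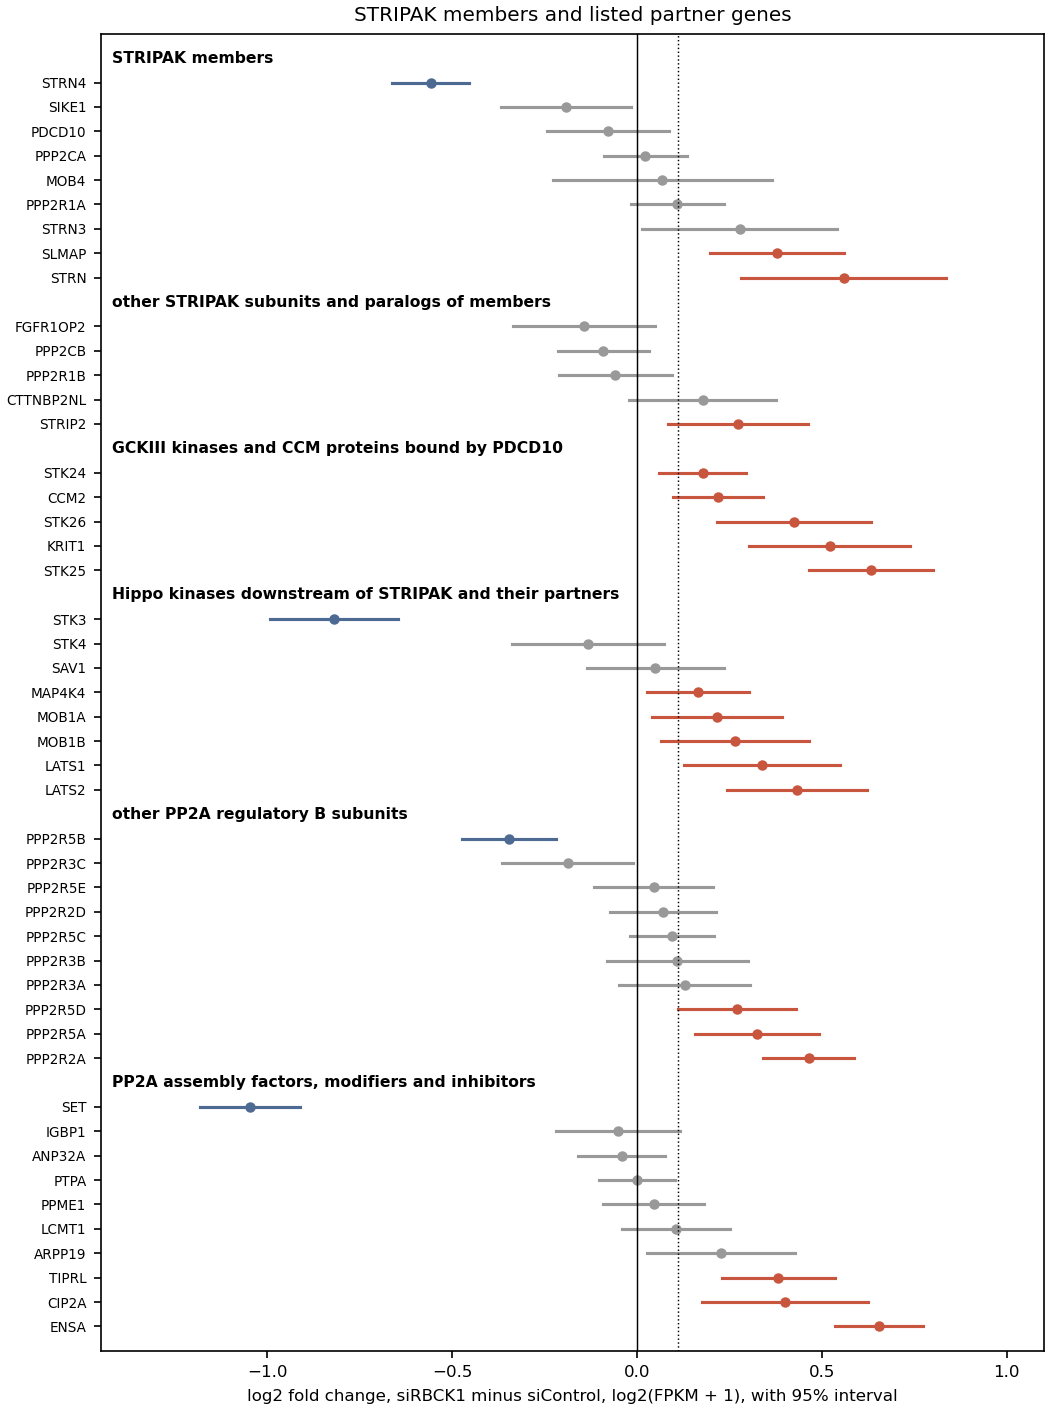
Log2 fold change of each tested gene on the log2(FPKM + 1) scale (horizontal axis, siRBCK1 minus siControl), with its 95% interval from limma, for the STRIPAK members and the 5 lists around them. Red and blue mark genes past an adjusted p of 0.05, grey the rest, and the dotted line is the median of all tested genes, 0.11. STRN4 at -0.56, STK3 at -0.82 and SET at -1.05 lie far to the left, while all 5 partners of PDCD10 lie to the right of 0, of which 3 pass after trimmed-mean scaling.

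The subunits span a wide range of levels, and FPKM is scaled by transcript length, so they were set side by side. The order is one of FPKM values, which can still differ between genes with length or G and C content. The value of MOB4 alone is uncertain. In siControl the order was STRN4 (123 ± 2.90 FPKM), PPP2CA (93.5 ± 3.35), PPP2R1A (77.4 ± 4.83), PDCD10 (47.7 ± 5.05), MOB4 (13.1 ± 0.395), SLMAP (8.80 ± 0.930), SIKE1 (6.77 ± 0.395), STRN3 (3.46 ± 0.564) and STRN (2.41 ± 0.599). No neighbours in this order overlapped, although the lowest STRN3 value, 2.84 FPKM, was close to the highest STRN value, 2.82 FPKM. In siRBCK1, PPP2CA (94.9 ± 2.70) came first, and PPP2R1A (83.5 ± 2.27) and STRN4 (83.2 ± 1.20) could not be ordered. There, MOB4 (14.1 ± 3.62) overlapped SLMAP (11.7 ± 0.387), and STRN3 (4.41 ± 0.712) overlapped STRN (3.97 ± 0.356), while PDCD10 (44.9 ± 1.89) and SIKE1 (5.80 ± 0.385) kept their places. Among all tested genes, 91.2% had a lower mean level than STRN4 and 19.3% a lower mean level than STRN.

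For the member with the largest rise and the one with the largest fall, the genes with the most similar pattern were found by the Euclidean distance between centred log2 values over the 6 libraries. For STRN these were AFF4, RNF182 and UTRN, at distances of 0.0777, 0.0784 and 0.0813. For STRN4 these were GPSM3, OTUB2 and RNLS, at distances of 0.0476, 0.0528 and 0.0675. The likeness rests on 6 libraries in 2 groups and is a description only.

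Transcript length moved with the fold change over all genes, with a Spearman rho of 0.243 over 11074 genes (across genes, which are not independent replicates). The longest transcript of STRN has 8168 nucleotides at 37.8% G and C and that of SLMAP 6749 nucleotides at 39.1%, whereas that of STRN4 has 3628 nucleotides at 63.9%. After the trend with length and G and C content was removed from each library, STRN was still higher (0.44, limma adjusted p = 0.00634), SLMAP was still higher (0.27, adjusted p = 0.00669) and STRN4 was still lower (-0.47, adjusted p = 2.39e-05). STRN was past the test in 13 of 13 alternative fits, with log2 fold changes from 0.40 to 0.73. SLMAP was past it in 14 of 14, from 0.23 to 0.42, and STRN4 in 14 of 14, from -0.68 to -0.47.

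**Figure D5:**
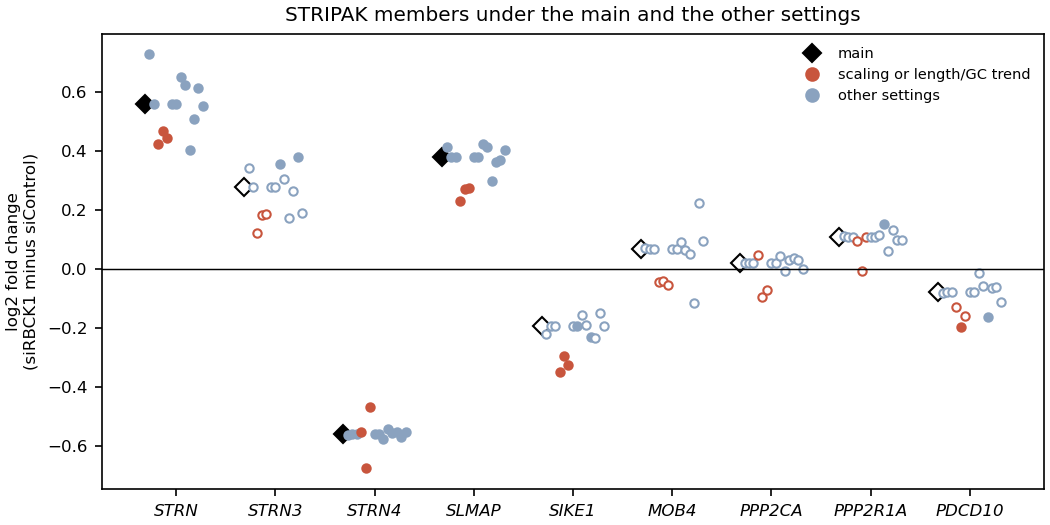
Log2 fold change of each STRIPAK member (vertical axis) in the fit as reported (diamond), under the other scalings and the length and GC trend removal (red) and under the other settings (blue). Filled symbols passed an adjusted p of 0.05. STRN, SLMAP and STRN4 stay filled and on their side of 0, SIKE1 is filled in 5 of 14, and MOB4 and PPP2CA cross 0 (as does PPP2R1A after trimmed-mean scaling).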

How the data were processed

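RNA of MDA-MB-231 cells was sequenced by the authors on a BGI platform, and FPKM values with 2 decimals were deposited for 17149 genes in each of 6 libraries. The build is GRCh38 per the submitters' processing notes, while aligner, quantifier and annotation were not stated in the sources used here. Symbols were matched for 17022 gene numbers, and 127 had none. The column header of siRBCK1 replicate 2 carries the name of replicate 1, with 3.03% of values equal, and was used as replicate 2. FPKM sums were 614082.0 to 659065.0 in siControl and 587248.4 to 594194.1 in siRBCK1, without overlap. The log2 shifts of trimmed-mean scaling, against siControl replicate 1, were -0.07 to 0.01 in siControl and 0.09 to 0.10 in siRBCK1.

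A gene was tested if 3 or more libraries reached 1 FPKM. The two-sided test was that of limma 3.58.1 (R 4.3.3, trend on intensity) on log2(FPKM + 1), with Benjamini-Hochberg adjustment over all tested genes and a threshold of 0.05. The test was also run on simulated data with independent noise and few changed genes. That setting is unlike these data, so the run does not show how the test behaves here. Shares of paralogs were compared by exact permutation tests over the libraries, as were 12 totals and ratios (adjusted over the 12, no p was under 0.05). The totals and ratios were not among the planned comparisons. The members and lists were chosen with earlier results of these data known. The text names RBCK1, every member, up to 3 genes a list and direction past the test with the largest log2 fold change, the paralogs, and the 3 genes nearest to STRN and STRN4. Overlapping genes and the remaining genes of a list of 5 or fewer, with STK4, were named after their values were seen. Alternatives were another pseudocount, other filters, scalings and thresholds, removal of the length and GC trend, no intensity trend, a replicate block and each library left out. The results for 1 listed subunit gene and 1 overlapping gene are not reported here, and the former is not in the counts. Promoters and gene positions are from RefSeq (GRCh38.p14) and transcripts from GENCODE 29.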

Additional observations from a re-analysis of the deposited data

How the results depend on the processing

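STRN, SLMAP and STRN4 kept their direction and stayed past the adjusted p of 0.05 in every refit that tested them, and the count of higher members was 1 with a filter of 5 FPKM because STRN was then not tested. With an unadjusted p of 0.05 and a fold change of 1.5 on the log2(FPKM + 1) scale, 655 genes were higher and 293 lower in place of 4103 and 1899, and 0 members were higher and 0 lower. Lower members numbered 2 with quantile normalization, 3 with trimmed-mean scaling, 2 with the length and GC trend removed and 2 without the intensity trend, in place of 1. SIKE1 was among them each time, and PDCD10 was the third. Leaving out 1 library gave 3166 to 4143 higher and 1489 to 1981 lower genes, 2 to 3 higher members and 1 to 3 lower members (3 without siControl replicate 3). Signs of members that did not pass the test turned. MOB4 went to -0.0437 with quantile normalization, -0.0418 with trimmed-mean scaling and -0.0550 with the length and GC trend removed, and ranged from -0.11 to 0.22 with 1 library left out. PPP2CA went to -0.0955 with trimmed-mean scaling and -0.0697 with the trend removed, and ranged from -0.00679 (without siControl replicate 2) to 0.0432 with 1 library left out. PPP2R1A went to -0.00778 with trimmed-mean scaling. The cause was not tested. No share of a paralog moved by more than the spread of the libraries, though that of SIKE1 differed by -2.66 to 0.26 points with 1 library left out. Deviations from the group means had r = -0.06, -0.19 and -0.04 for same-numbered libraries, and r from -0.15 to 0.23 for differently numbered ones. Deviations from a mean of 3 libraries depend on each other, so these values cannot decide whether libraries were paired. With a replicate block, 3812 genes were higher and 1739 lower, and 2 members were higher and 1 lower. FPKM without read totals hides the counting error, which bears most on STRN and STRN3, at under 6 FPKM.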
